A study of Mus musculus with 16 samples.

Results

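The genes described here are 10 macrophage genes of mouse fat: Adgre1, Csf1r, Cd68, Mrc1, Cd163, Lyve1, Folr2, Timd4, Clec10a and Retnla. They were taken by name, as genes of macrophages in general and of the macrophages that reside in tissue, and matched to the Ensembl identifiers of the deposited tables. All 10 were found among the 30325 genes measured in gonadal fat and among the 30946 genes measured in subcutaneous fat. RNA sequencing had been done on both fat depots of female mice that lack Lcn2 (B6.129P2-Lcn2tm1Aade/AkiJ, on C57BL/6J). At 8 weeks of age the mice were given the gene transfer virus AAV8 with a coding sequence for LCN2 or, as the control, GFP, under the adiponectin promoter, which is active in fat cells. The construct also held a target sequence of microRNA122, through which its transcripts are degraded in liver. All mice ate the HF/HS diet D12266B until tissue was taken at 16 weeks, so controls and treated mice share the Lcn2 deletion, the virus and the diet. Each depot had 4 GFP and 4 LCN2 samples, 16 in all. Lipocalin-2, the product of Lcn2, is a secreted protein that binds iron-carrying siderophores, and the comparison asks what its return to fat cells does to the tissue.

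Fat holds resident macrophages that clear dead cells and debris, take up iron and hemoglobin, and persist in part by dividing in place. They depend on signals through the receptor encoded by Csf1r. The transcription factor PU.1 sets the macrophage program, and interleukin 4 and interleukin 13, acting through STAT6, raise genes such as Mrc1, Clec10a and Retnla. Whole tissue was sequenced, so fewer macrophages and less RNA per macrophage cannot be told apart in any value below.

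Promoter windows were available for 6 of the 10 genes in the RefSeq table of build GRCm38.p6, and they were searched for 4 short motifs over the 250 bases before each listed start. The motifs were the PU.1 core GAGGAA, the STAT6 pattern of TTC, any 4 bases and GAA, the C/EBP core TTGCNNAA, and TATAAA. The first 3 were read on both strands and the last on the gene's strand only. Of all 32851 windows of this length, 23.3% hold the PU.1 core, 5.85% the STAT6 pattern, 9.56% the C/EBP core and 7.59% TATAAA. Only the 3 genes with a match are shown, a lysosomal gene and 2 genes that type 2 cytokines are known to raise. The 3 windows without a match are not shown. Capitals mark the matches, and each sequence runs 5′ to 3′ on the gene's strand and stops where the annotated gene begins.
Retnla, chr16:48842359-48842550, plus strand: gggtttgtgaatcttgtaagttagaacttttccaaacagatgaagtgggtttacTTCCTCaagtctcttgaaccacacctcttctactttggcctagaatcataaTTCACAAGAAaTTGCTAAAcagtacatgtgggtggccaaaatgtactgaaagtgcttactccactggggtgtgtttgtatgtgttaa
Mrc1, chr2:14229164-14229391, plus strand: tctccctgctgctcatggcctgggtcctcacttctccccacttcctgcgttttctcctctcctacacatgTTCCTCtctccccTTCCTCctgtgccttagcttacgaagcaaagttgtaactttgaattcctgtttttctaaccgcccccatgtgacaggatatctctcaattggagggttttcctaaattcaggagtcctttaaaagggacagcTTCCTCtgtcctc
Cd68, chr11:69666171-69666420, minus strand: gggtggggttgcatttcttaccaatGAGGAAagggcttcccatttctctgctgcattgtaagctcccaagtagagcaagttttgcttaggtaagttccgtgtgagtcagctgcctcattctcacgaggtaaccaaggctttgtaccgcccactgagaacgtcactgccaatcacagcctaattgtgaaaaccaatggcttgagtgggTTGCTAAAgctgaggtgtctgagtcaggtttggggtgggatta
The Retnla window held 1 match of each of the 4 motifs, with the STAT6 pattern and the C/EBP core separated by a single base, and its TATAAA lay past the printed stretch. The Mrc1 window held the PU.1 core at 3 places, all on the other strand, where it reads TTCCTC. The Cd68 window held 1 PU.1 core and 1 C/EBP core. The windows of Cd163, Folr2 and Timd4 held none of the 4. A match is a string of letters and not a site shown to be bound.

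None of the 10 genes differed past the threshold between LCN2 and GFP in either depot, and for none did the LCN2 samples separate from the GFP samples. The test was limma on log2 values over all genes, with p-values adjusted by the Benjamini-Hochberg method and a threshold of 0.05. In gonadal fat 0 of the 10 passed, where 20 of 19536 genes did (0.102%). In subcutaneous fat 0 of the 10 passed, and 0% of 20302 genes did, with 2848 at an unadjusted p under 0.05 by limma. The groups were free of overlap for 0 of the 10 genes in each depot, against 9.11% of genes in gonadal and 7.08% in subcutaneous fat. The median difference of the 10, LCN2 minus GFP, was -0.04 on the log2 scale in gonadal and 0.16 in subcutaneous fat, where the medians of all genes were 0.01 and 0.00. Lcn2 itself, read to check the labels, was higher in every LCN2 sample than in any GFP sample of its depot, by 1.93 in gonadal and 0.95 in subcutaneous fat (exact permutation test, two-sided, p = 0.0286 in each, the smallest that 4 against 4 allows). Which exons are missing from the mutant allele is not stated in the labels.

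Some libraries stand apart by markers of other tissues or cells, and their part in the values of these genes was not tested. In gonadal fat, LCN2 replicate 4 held 17780 normalized counts of the muscle myosin Myh4, GFP replicate 2 held 811.9, and the other 6 between 3.165 and 88.75. Over 7 muscle markers LCN2 replicate 4 summed to 1320 CPM (counts scaled to the library total) and the other 7 libraries to between 28.5 and 182, with GFP replicate 2 at 77.6, so GFP replicate 2 is set apart here by Myh4 and not by that sum. Genes of liver cells summed to 400, 478 and 1180 CPM in GFP replicate 1 and LCN2 replicates 1 and 2, and to between 47.5 and 114 in the rest. In subcutaneous fat, 7 B cell markers had mean values of 10.58, 9.46 and 8.93 in GFP replicates 1 and 2 and LCN2 replicate 4, and between 5.72 and 6.17 in the other 5. There T cell markers were at 9.02 and 8.71 in GFP replicates 1 and 2 and between 5.48 and 6.03 in the rest, LCN2 replicate 4 included. Liver cell markers were at 7.06 and 8.65 in GFP replicates 1 and 2 and between 5.73 and 6.35 in the rest. Gonadal libraries held 35173260 to 42890102 reads.

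**Figure D1:**
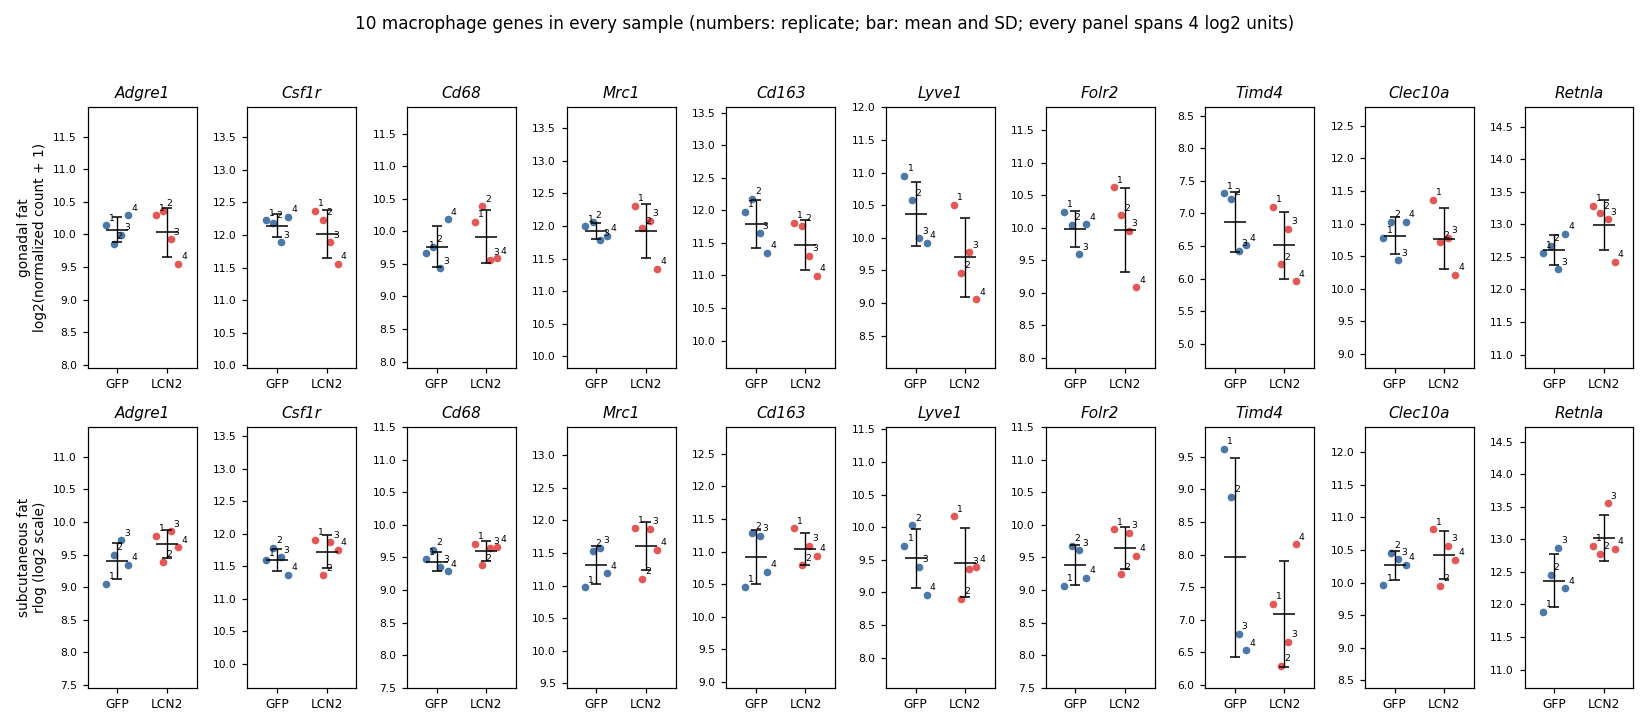
Values of the 10 genes in each sample, as log2 of the normalized count plus 1 in gonadal fat (upper row) and as rlog in subcutaneous fat (lower row). Points are samples labelled by replicate, bars are means and SDs of 4 samples, and every panel spans the same range. The GFP and LCN2 points overlap in all 20 panels, and Timd4 in subcutaneous fat has the widest spread.

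Levels were compared between genes per length of exon. Retnla, which encodes the secreted protein RELMα, stood far above the rest. In gonadal fat it had 324 ± 84.9 RPKM, here the recovered reads per kb of exon scaled to the library total (SD, n = 8), and its lowest sample, at 209, was above the highest sample of any other member. The next 8 genes ran from Csf1r at 20.3 ± 4.26 through Cd68, Folr2, Clec10a, Mrc1, Cd163 and Lyve1 to Adgre1 at 8.88 ± 2.00, and the ranges of neighbours in that order overlapped. Timd4 came last at 1.30 ± 0.411, with its highest sample, 1.88, under the lowest of Adgre1, 6.29. In subcutaneous fat, on the rlog scale less log2 of the exon length in kb, Retnla was again apart at 13.4 ± 0.5, Cd68 and Csf1r came next at 9.19 ± 0.162 and 9.13 ± 0.207, and Timd4 was last at 6.40 ± 1.23, with a range that reached that of Adgre1. The depots were normalized separately, so the 2 scales cannot be set against each other.

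**Figure D2:**
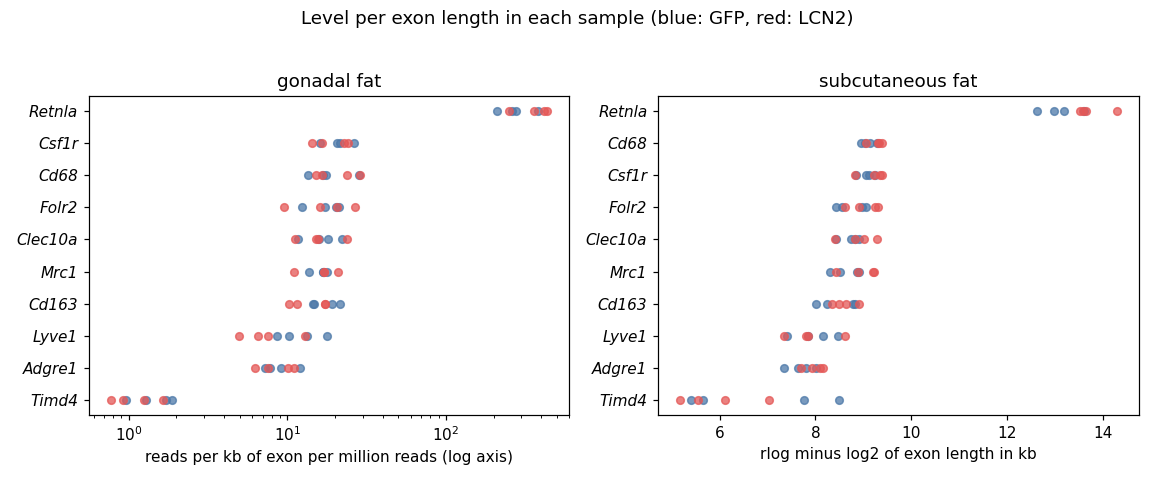
Level of each gene per length of exon in every sample, with a log axis for gonadal fat and the length-adjusted rlog scale for subcutaneous fat. Retnla lies apart at the top in both depots, and Timd4 is last in both.

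Adgre1, Csf1r and Cd68 are carried by macrophages at large. Adgre1 (ENSMUSG00000004730, GRCm38 chromosome 17, 57358691 to 57483527) encodes F4/80, the surface protein by which mouse macrophages are usually recognised. Its normalized counts in gonadal fat were 1128, 927.8, 1019 and 1256 in GFP replicates 1 to 4 and 1252, 1315, 971.7 and 746.2 in the LCN2 replicates. The lowest and the highest value were both in the LCN2 group, which spans the GFP group on either side. The difference was -0.04 (SE 0.183, 95% interval -0.46 to 0.37, limma adjusted p = 0.948). In subcutaneous fat the rlog values were 9.05, 9.50, 9.72 and 9.34 with GFP and 9.79, 9.39, 9.86 and 9.61 with LCN2. Here 3 of the 4 LCN2 samples were above the GFP mean, and the difference of 0.26 (SE 0.156, interval -0.09 to 0.62) had a limma adjusted p of 0.461.

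Csf1r (ENSMUSG00000024621) encodes the receptor for CSF1 and IL-34, on which macrophage survival depends. Gonadal values were 4794, 4666, 3790 and 4967 with GFP and 5287, 4831, 3795 and 3018 with LCN2. LCN2 replicate 4 was the lowest of all and LCN2 replicate 1 the highest. The difference was -0.13 (SE 0.177, interval -0.53 to 0.27, limma adjusted p = 0.787). It was 0.03 (SE 0.166) without the 2 libraries highest in Myh4 and -0.39 (SE 0.183) without the 3 highest in liver genes. Subcutaneous values lay between 11.36 and 11.91, a difference of 0.13 (SE 0.134, interval -0.18 to 0.43, limma adjusted p = 0.667). Its exons share 15.12% of their bases with Hmgxb3 on the opposite strand, and whether reads were assigned by strand is not given in the sources used here.

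Cd68 (ENSMUSG00000018774, chromosome 11, 69664213 to 69666153) encodes macrosialin, a glycoprotein of lysosomes. Gonadal values were 811.3, 866.8, 688.3 and 1162 with GFP and 1133, 1335, 756.3 and 766.3 with LCN2. Each group holds low samples and at least 1 high sample, and the difference was 0.16 (SE 0.221, interval -0.34 to 0.66, limma adjusted p = 0.793). In subcutaneous fat Cd68 was the steadiest of the 10, between 9.29 and 9.71 in all samples. The difference there was also 0.16 (SE 0.0979, interval -0.06 to 0.39, limma adjusted p = 0.469).

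The next 5 genes mark the resident, scavenging macrophages. Mrc1 (ENSMUSG00000026712, chromosome 2, 14229392 to 14332057), the mannose receptor CD206, takes up glycoproteins. Its gonadal values were 4086, 4255, 3522 and 3694 with GFP and 5080, 3998, 4332 and 2588 with LCN2. The LCN2 samples spread to both sides of the GFP samples, so that the difference was 0.00 (SE 0.189, interval -0.43 to 0.43, limma adjusted p = 0.998). Subcutaneous values were 10.97, 11.53, 11.58 and 11.19 with GFP and 11.89, 11.10, 11.87 and 11.55 with LCN2. The difference of 0.29 (SE 0.206, interval -0.19 to 0.76) had a limma adjusted p of 0.529.

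Cd163 (ENSMUSG00000008845, chromosome 6, 124304656 to 124330527) encodes the receptor that clears hemoglobin bound to haptoglobin. Gonadal values were 4036, 4619, 3207 and 2609 with GFP and 3585, 3478, 2526 and 2038 with LCN2. All 4 LCN2 samples were below the GFP mean of 3618, but GFP replicates 3 and 4 were lower than LCN2 replicates 1 and 2. The difference was -0.32 (SE 0.227, interval -0.83 to 0.19, limma adjusted p = 0.565), and -0.03 without the 2 libraries highest in Myh4. One of these, GFP replicate 2, held the highest Cd163 value. Without LCN2 replicate 4 alone the difference was -0.16 (SE 0.214), and without the 3 libraries highest in liver genes it was -0.58 (SE 0.26). In subcutaneous fat the difference was 0.13 (SE 0.208, interval -0.35 to 0.60, limma adjusted p = 0.795), with values between 10.46 and 11.36.

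Lyve1 (ENSMUSG00000030787, chromosome 7, 110850607 to 110863239), a receptor for hyaluronan, marks perivascular macrophages and also lymphatic endothelium. Its gonadal values were 1982, 1525, 1018 and 969.6 with GFP and 1450, 703.9, 877.6 and 532.6 with LCN2. In 3 of 4 LCN2 samples it was below every GFP sample, and LCN2 replicate 1 was above 2 of them. The difference, -0.66 (SE 0.327, interval -1.40 to 0.08), was the lowest of the 10 in this depot and did not pass (limma adjusted p = 0.391). It was -0.38 (SE 0.354) without the 2 libraries highest in Myh4 and -0.74 (SE 0.29) without the 3 highest in liver genes. Over 19 alternatives it was between -0.93 and -0.24. Markers of lymphatic endothelium were lower with LCN2 for 8 of the 9 tested, with a median of -0.47 and none past the threshold. Their summed level was between 49.7 and 173 CPM with GFP and between 55.6 and 73.6 with LCN2, and GFP replicate 2, with the second highest Lyve1, had the lowest lymphatic level. Across gonadal samples Lyve1 had r = 0.11 with this list (exact permutation p = 0.784, adjusted p = 0.89). That r was 0.63 without the 2 samples farthest from the median of the list. Across subcutaneous samples r was 0.59 (exact permutation p = 0.127, adjusted p = 0.628), and 0.01 without the 2 farthest. How much of the Lyve1 signal came from these cells was not tested. In subcutaneous fat the values overlapped throughout, and the difference was -0.07 (SE 0.302, interval -0.76 to 0.62, limma adjusted p = 0.929).

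Folr2 (ENSMUSG00000032725, chromosome 7, 101839988 to 101857194) encodes the folate receptor beta. Gonadal values were 1209, 1055, 772.1 and 1063 with GFP and 1572, 1169, 987.6 and 541.6 with LCN2. The LCN2 group again held both extremes, and the difference was -0.02 (SE 0.295, interval -0.69 to 0.65, limma adjusted p = 0.983). It became 0.29 (SE 0.224) without the 2 libraries highest in Myh4 and -0.38 (SE 0.289) without the 3 highest in liver genes. In subcutaneous fat it was 0.26 (SE 0.194, interval -0.19 to 0.70, limma adjusted p = 0.545). Of its exonic bases 63.07% lie opposite Gm10602, which had between 51.0 and 83.2 normalized counts in gonadal fat. If strand was not used in counting, reads there may have gone to the other gene or to neither. How many did is not known.

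Timd4 (ENSMUSG00000055546, chromosome 11, 46810800 to 46844332) encodes TIM-4, which binds phosphatidylserine on dying cells. In gonadal fat it was the scarcest of the set, at 157.2, 147.5, 84.84 and 90.33 normalized counts with GFP and 136.0, 73.62, 107.7 and 61.18 with LCN2. The groups interleave, and the difference was -0.35 (SE 0.303, interval -1.04 to 0.33, limma adjusted p = 0.645). It was -0.05 (SE 0.320) without the 2 libraries highest in Myh4 and -0.17 (SE 0.3) without LCN2 replicate 4 alone. Leaving out the 3 libraries highest in liver genes gave -0.36 (SE 0.363). In subcutaneous fat the rlog values were 9.62, 8.89, 6.78 and 6.53 with GFP and 7.24, 6.29, 6.66 and 8.16 with LCN2. The 3 high samples, GFP replicates 1 and 2 and LCN2 replicate 4, are the 3 with high B cell markers, and the other 5 lie between 6.29 and 7.24. The difference was -0.87 with the widest error of the 10 (SE 0.743, interval -2.58 to 0.84, limma adjusted p = 0.591), and 0.07 (SE 0.277) without those 3 libraries. Marco, a scavenger receptor of lymph node, spleen and liver macrophages, was highest in the same 3 samples, at 9.58, 8.59 and 7.84 against 5.52 to 6.43.

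**Figure D3:**
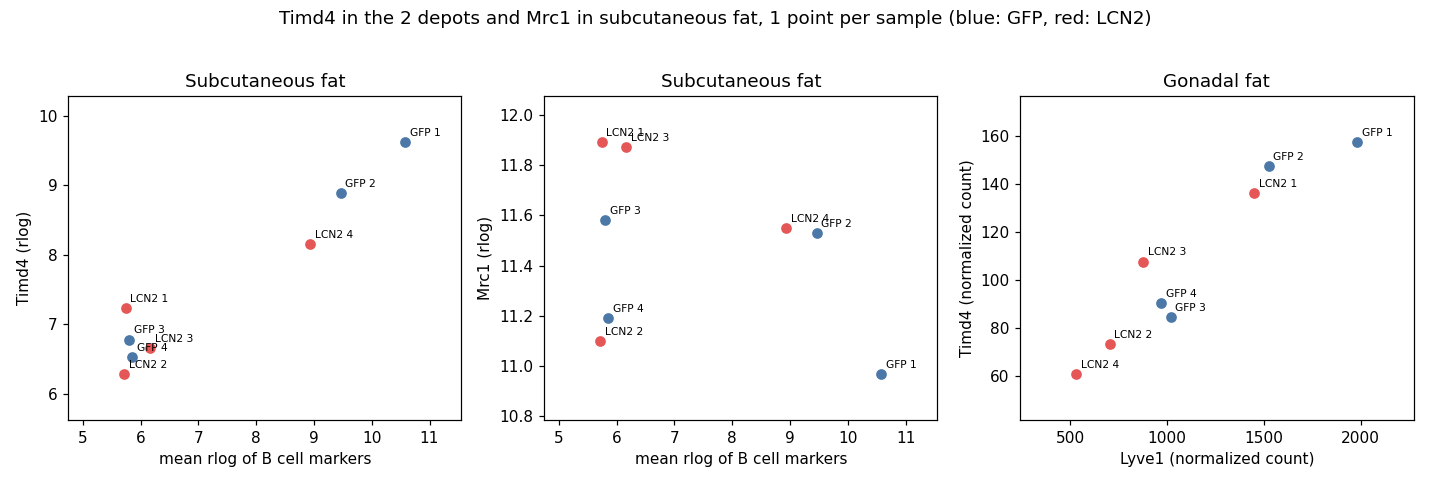
Timd4 (left) and Mrc1 (middle) against the mean of 7 B cell markers in subcutaneous fat, and Timd4 against Lyve1 in gonadal fat (right), 1 point per sample. Timd4 in subcutaneous fat is highest in the 3 samples with B cell markers of 8.93 and more, Mrc1 is not, and in gonadal fat Timd4 and Lyve1 rank the samples much alike.

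Clec10a and Retnla are genes that type 2 cytokines are known to raise in macrophages. Clec10a (ENSMUSG00000000318, chromosome 11, 70156197 to 70170834) encodes a lectin for galactose-type sugars. Its gonadal values were 1759, 2082, 1382 and 2082 with GFP and 2635, 1678, 1756 and 1185 with LCN2, again with both extremes in the LCN2 group. The difference was -0.05 (SE 0.233, interval -0.58 to 0.48, limma adjusted p = 0.951). In subcutaneous fat it was 0.16 (SE 0.187, interval -0.27 to 0.59, limma adjusted p = 0.701).

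Retnla (ENSMUSG00000061100, chromosome 16, 48842551 to 48844461) had the highest positive difference of the 10 in both depots. Gonadal values were 6059, 6534, 5080 and 7412 with GFP and 9993, 9188, 8654 and 5491 with LCN2. LCN2 replicates 1 to 3 were above every GFP sample, and LCN2 replicate 4, the library with high Myh4, was under 3 of the 4. The difference was 0.39 (SE 0.196, interval -0.06 to 0.83), and the adjusted p by limma was 0.402. It was 0.60 (SE 0.158) without the 2 libraries highest in Myh4 and 0.14 (SE 0.260) without the 3 highest in liver genes, and the part of these tissues was not tested. Over 19 alternatives it was between 0.14 and 0.60, positive in all 19, with no adjusted p under 0.155.

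Subcutaneous Retnla values were 11.89, 12.45, 12.87 and 12.25 with GFP and 12.90, 12.78, 13.55 and 12.85 with LCN2. All 4 LCN2 samples were above the GFP mean of 12.37, while GFP replicate 3 was above LCN2 replicates 2 and 4. The difference of 0.66 (SE 0.237) had an interval of 0.11 to 1.20, which does not take the number of genes tested into account, and an adjusted p of 0.32 by limma. Over 16 alternatives it was between 0.46 and 0.83, positive in all 16, with adjusted p from 0.117 upward. Without the 3 libraries high in B cell markers it was 0.52 (SE 0.291). Fibroblast markers had r = 0.90 with Retnla over the 8 subcutaneous samples (exact permutation p = 0.00375, adjusted p = 0.106) and rho = 0.95 (exact permutation p = 0.00114, adjusted p = 0.194), among 170 comparisons of a member with a cell type list. Their r was 0.72 without the 2 samples farthest from the median of these markers. Some other members had like values with the same markers. For Adgre1 r was 0.95 (exact permutation p = 0.000645, adjusted p = 0.0548), with rho = 0.90 (exact permutation p = 0.00456, adjusted p = 0.388) and r = 0.85 without the 2 farthest samples. For Mrc1, Folr2, Cd163 and Clec10a r was 0.83, 0.78, 0.75 and 0.70. It was lower for Csf1r, Cd68 and Lyve1, at 0.44, 0.25 and -0.05, and it was negative for Timd4. The fibroblast list was not alone in such values. Markers of eosinophils and mast cells had r = 0.95 with Clec10a (exact permutation p = 0.00169, adjusted p = 0.0573), 0.84 with Mrc1 and 0.78 with Folr2. Their r was 0.49 with Retnla and -0.31 with Timd4. Fat cell markers had r = 0.76 with Retnla (exact permutation p = 0.0245, adjusted p = 0.347). None of the 170 passed in either depot.

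**Figure D4:**
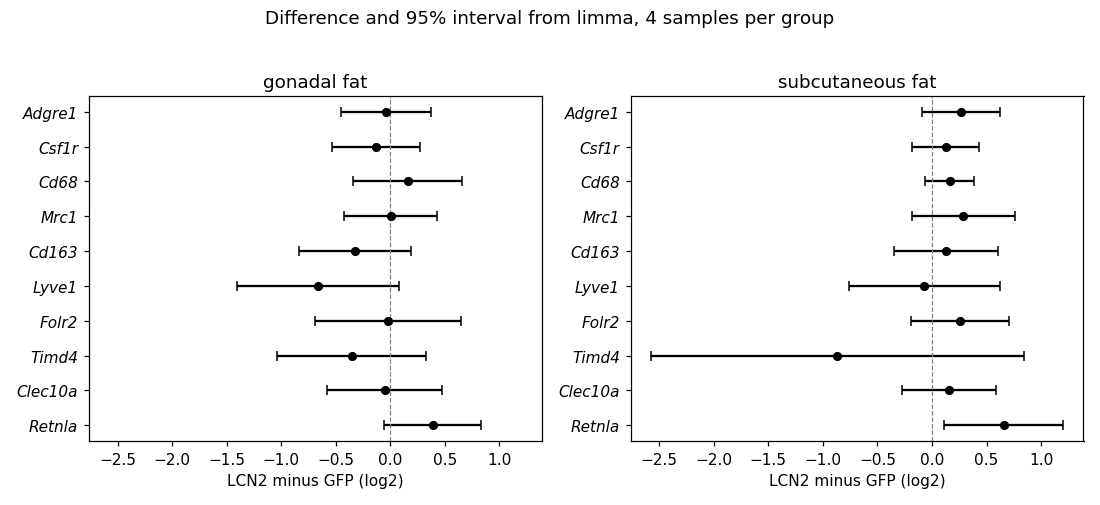
LCN2 minus GFP for the 10 genes, on the log2 scale, with 95% intervals from limma (4 samples per group). The intervals take in 0 for every gene and depot except Retnla in subcutaneous fat, whose adjusted p is 0.32, and Timd4 in subcutaneous fat has the widest.

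The 10 genes tended to be high or low in the same samples, apart from Timd4 in subcutaneous fat. In gonadal fat LCN2 replicate 4 was the lowest sample for 8 of the 10 and GFP replicate 3 for the other 2, while LCN2 replicate 1 was the highest for 5. The 10 genes together took 0.0678%, 0.0676%, 0.0507% and 0.0780% of reads with GFP and 0.0843%, 0.0752%, 0.0621% and 0.0463% with LCN2. The spread within the LCN2 group took in the whole GFP group. In subcutaneous fat LCN2 replicate 1 was the highest for 7, and GFP replicate 1 and LCN2 replicate 2 were the lowest for 5 and 4. Timd4 was highest there in GFP replicate 1.

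Correlations were computed for the 45 pairs over the 8 samples of a depot, on the log2 scale, with exact permutation tests adjusted over the 45. The values of a sample share its library and its scaling. In gonadal fat r was positive in 43 pairs, with a median of 0.67 and a range of -0.05 to 0.95, and 7 pairs passed by r and 0 by rho. Lyve1 and Timd4 were the closest, with r = 0.95 (exact permutation p = 0.000546, adjusted p = 0.0123) and rho = 0.90 (exact permutation p = 0.00456, adjusted p = 0.103). Their r was 0.90 without the 2 samples farthest from the median and 0.96 with group means subtracted. Folr2 with Csf1r and with Mrc1 followed, each at r = 0.93 (exact permutation, adjusted p = 0.0123 and 0.0400), but these fell to 0.72 and 0.55 without the 2 farthest samples.

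Without LCN2 replicate 4 the median r was 0.44, 36 pairs were positive and 0 passed. Without LCN2 replicate 1 the median was 0.61 and 0 passed, and without any 1 of the GFP samples 1 or 2 pairs passed. With group means subtracted the median was 0.74, all 45 were positive and 0 passed. The permutations were then made within groups, which leaves fewer arrangements for the exact test.

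In subcutaneous fat Timd4 fell into the high and low samples described above, so no pooled r is given for it. Among the other 36 pairs r was positive in 35, with a median of 0.74, and 14 passed by r and 14 by rho. Mrc1 and Folr2 were the closest, with r = 0.98 (exact permutation p = 0.000471, adjusted p = 0.0096) and rho = 0.90 (exact permutation p = 0.00456, adjusted p = 0.0228), and r stayed at 0.98 without the 2 farthest samples and with group means subtracted. Adgre1 and Mrc1 had r = 0.95 (exact permutation, adjusted p = 0.0096) and rho = 0.95 (exact permutation, adjusted p = 0.0171). Csf1r and Cd68 had r = 0.90 (exact permutation, adjusted p = 0.0181) and rho = 0.81 (exact permutation, adjusted p = 0.0612). Lyve1 and Retnla were the only pair without Timd4 below 0, at r = -0.08. Without the 3 libraries high in B cell markers, 5 samples remained and the median over all 45 pairs was 0.85. There 0 passed, but 5 samples give the exact test so few arrangements that a pair could hardly pass.

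**Figure D5:**
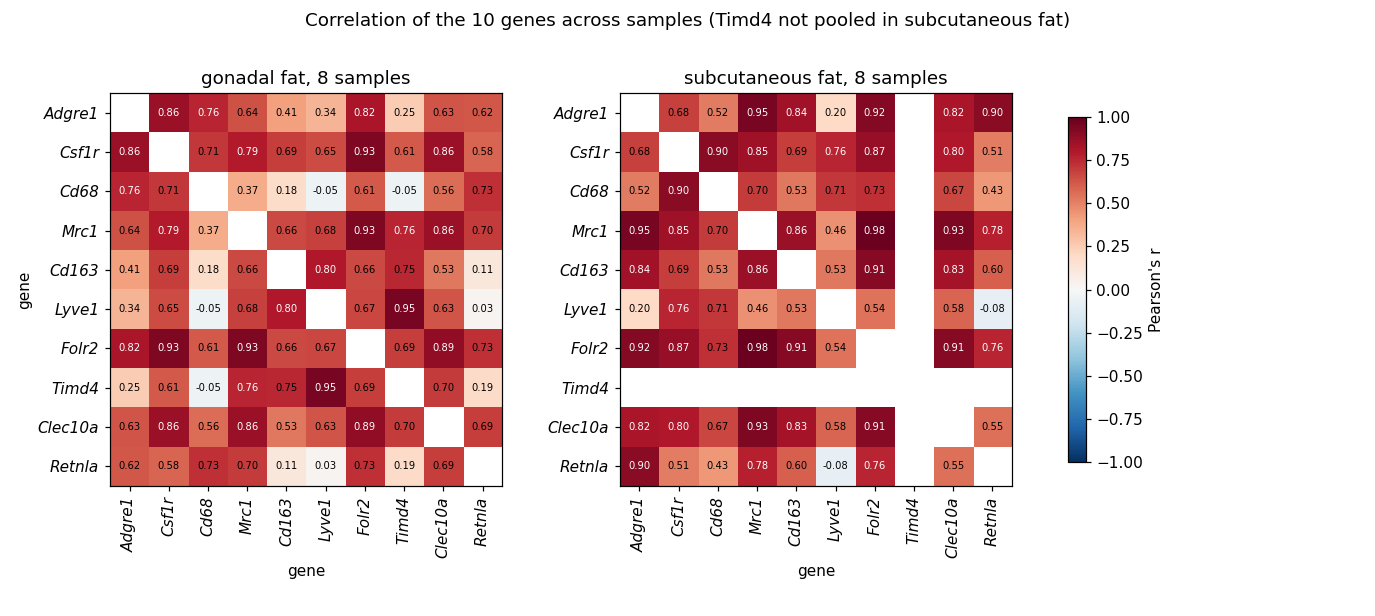
Pearson's r between the 10 genes over 8 samples in gonadal (left) and subcutaneous fat (right), with red for positive and blue for negative values. Timd4 is left blank in subcutaneous fat because its samples fall into 2 clusters; Lyve1 and Timd4 are the closest pair in gonadal fat at 0.95, and Mrc1 and Folr2 in subcutaneous fat at 0.98.

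Genes outside the set were ranked by their correlation with the mean of the standardised members over the 8 samples, as a description with no test. Of 14953 gonadal genes the 5 most alike were C1qc (r = 0.99), Ccl6 (0.97), Csf1, C1qb and C1qa (0.96 each). Of 15344 subcutaneous genes they were C1qb (0.95), C1qc, Ms4a4d and Akr1cl (0.94 each) and Sprr1a (0.93). C1qa, C1qb and C1qc encode the chains of complement C1q, which tissue macrophages make, and Csf1 encodes the ligand of Csf1r. C1qc had 3254, 3158, 2670 and 3214 normalized counts with GFP and 3927, 3118, 2882 and 2000 with LCN2, so that the same samples as for the members were high and low.

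None of the genes listed for the pathways around these markers passed the test. For each list the 3 genes with the smallest p in a depot are named, with LCN2 minus GFP on the log2 scale and limma adjusted p. Of 24 further macrophage genes, 15 differences were positive in gonadal fat (median 0.08) and 11 in subcutaneous fat (median -0.04), with 0 of 24 past the threshold in each. The gonadal genes were Mertk, a receptor for the uptake of dying cells (-0.40, adjusted p = 0.380), Itgb2, an integrin chain (0.43, adjusted p = 0.466), and Cd14, a receptor for bacterial lipopolysaccharide (-0.37, adjusted p = 0.484). The subcutaneous genes were Itgam, which encodes CD11b (0.27, adjusted p = 0.317), Fcer1g, an adaptor of antibody receptors (0.20, adjusted p = 0.384), and Ms4a7 (-0.18, adjusted p = 0.412).

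Of the other genes of resident macrophages, 8 of 16 were positive in gonadal fat (median -0.02) and 13 of 15 in subcutaneous fat (median 0.33), again with none past the threshold. Cbr2, a carbonyl reductase, was named in both, with 0.48 (adjusted p = 0.349) in gonadal and 0.33 (adjusted p = 0.340) in subcutaneous fat. The chemokine gene Ccl9 had 0.43 (adjusted p = 0.315) and Stab1, a scavenger receptor, 0.25 (adjusted p = 0.345) in subcutaneous fat. In gonadal fat the lectin gene Cd209d had 0.38 (adjusted p = 0.415) and the chemokine gene Ccl8 1.14 (adjusted p = 0.438).

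Among 13 tested genes of the CSF1 axis and of macrophage transcription factors, 7 differences were positive in gonadal and 8 in subcutaneous fat, and none passed. Irf8, a transcription factor of monocytes, macrophages and dendritic cells, was the 1 gene of these 13 whose gonadal groups did not overlap, against 9.11% of all genes, at 659.4, 460.9, 707.4 and 784.8 with GFP and 1055, 1130, 1222 and 1055 with LCN2. Its difference was 0.80 (SE 0.16, limma adjusted p = 0.109), and in subcutaneous fat -0.24 (SE 0.41, limma adjusted p = 0.803), where its 2 highest samples were the GFP samples high in B cell markers. The transcription factors Runx1 and Mitf, had 0.79 (adjusted p = 0.158) and -0.32 (adjusted p = 0.362) in gonadal fat. In subcutaneous fat Csf2ra, a chain of the GM-CSF receptor, had 0.27 (adjusted p = 0.315), Il34, the other ligand of Csf1r, 0.24 (adjusted p = 0.407) and Mitf 0.15 (adjusted p = 0.441). Csf1 itself had -0.06 (SE 0.14) in gonadal and 0.17 (SE 0.1) in subcutaneous fat.

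Of 11 tested genes from a list for type 2 immunity, 6 were positive in gonadal fat (median 0.04) and 3 in subcutaneous fat (median -0.02), and none passed. The list also held Pparg, Il10, Il10ra and Retn, the last of which is among the fat cell markers as well. The counts and medians are thus not of type 2 genes alone. Il4ra, the receptor chain through which interleukin 4 and interleukin 13 signal, had 0.87 (SE 0.3, limma adjusted p = 0.233) in gonadal fat, with 4897 normalized counts in LCN2 replicate 1. Il33, which encodes a cytokine that drives type 2 responses, had -0.51 (adjusted p = 0.222), and Il4, with 12.04 to 41.44 normalized counts, had -0.59 (adjusted p = 0.405). In subcutaneous fat Stat6 had 0.17 (adjusted p = 0.333), Arg1, an arginase, -0.73 (adjusted p = 0.384) and Il10ra, an interleukin 10 receptor chain, -0.42 (adjusted p = 0.468).

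Of 6 proliferation genes all 6 were positive in gonadal fat (median 1.29), none passed, and 5 had groups that did not overlap, as did 9.11% of all genes in either direction. Mki67, a marker of dividing cells, had 129.2 to 299.2 normalized counts with GFP and 370.1 to 1028 with LCN2 (limma adjusted p = 0.173), in whole tissue and thus in cells of any type. Cdk1, the kinase that starts mitosis, had 1.31 (SE 0.24, limma adjusted p = 0.103) and Birc5, survivin, 1.26 (SE 0.34, limma adjusted p = 0.18). In subcutaneous fat 3 of the 6 were positive (median -0.02), and Cdk1, Top2a and Bub1 had 0.14, -0.18 and -0.07 (limma adjusted p = 0.727, 0.817 and 0.877).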

How the data were processed

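Groups and replicate numbers follow the labels. These name neither shared mice between depots nor separate animals behind replicates, so a p-value reflects sample-to-sample spread only, which may be technical. Per the labels' protocols, RNA had an integrity number above 8.2 and the library kit kept strand. The submitters' processing notes list HISAT2, DESeq2, GRCm38 and mm10; the counting tool and strand setting are not given there. The members and all gene lists were chosen with earlier results of these data known.

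The gonadal table, as the authors deposited it, holds a signal per gene: reads divided by 1 size factor per sample, called the normalized count here. In each of the 8 columns 100% of the values were whole multiples of 1 step, within a tolerance of 1e-06, and the automated check of this accepted 6 columns. Totals, per-length levels and depth use the steps of all 8 columns, and count tests the 6 accepted ones, which lack LCN2 replicates 2 and 4. In these libraries 3 reads equal 0.0699 to 0.0853 CPM, which reflects counting error alone. The subcutaneous table was deposited as rlog, a log2 scale that pulls low genes towards their mean and so understates their changes. Its depth is unknown, and the tables were tested apart.

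Gonadal values were tested as log2 of the normalized count plus 1, with limma 3.58.1 in R 4.3.3 and an intensity trend, over 19536 genes averaging 10 or more. That scale shrinks changes of low genes. Subcutaneous values were tested with limma over 20302 genes averaging 3 or more. All 10 members passed these filters. The edgeR 4.0.16 quasi-likelihood test and DESeq2 1.42.0 were alternatives. The procedure was tested on simulated data. Coordinates, exon lengths and overlaps come from GENCODE on GRCm38, and 99.2% of identifiers in each table had a symbol. Named genes were the members, Lcn2, the 5 genes most alike in each depot and, of each list, the 3 with the smallest p. Marco and Myh4, and the values given for a named gene in the other depot, were chosen after their values were seen.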

Additional observations from a re-analysis of the deposited data

Results flagged for a closer look

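In subcutaneous fat the Retnla value of LCN2 replicate 3, 13.55, stood away from the other 3 LCN2 samples, at 12.90, 12.78 and 12.85. Its gap to the nearest of them was 0.84 of the range of the group, above Dixon's 95% critical value for 4 samples. It was the only such value in 40 groups of 4, and chance alone flags about 1 group in 20.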

How the results depend on the processing

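No member passed the threshold in either depot under any alternative: adjusted p was 0.155 to 1.0 over 190 gonadal and 0.117 to 0.995 over 160 subcutaneous fits. The gonadal count over all genes, 20, became 6 with library totals, 11 with a mean of at least 50, 0 without the 2 libraries highest in Myh4, 0 without the 3 highest in liver genes, and 1 to 66 with 1 sample left out, highest without GFP replicate 4; the cause was not tested. On the recovered reads of 6 libraries (4 GFP, LCN2 replicates 1 and 3), an alternative chosen after seeing the data, edgeR called 1 and DESeq2 231, while the planned count tests on all 8 were not run because the check of whole reads accepted 6. The subcutaneous count was 0 under every alternative. A fit with a replicate block gave 0 in both depots. Same-numbered samples had deviations correlated between -0.359 and 0.424. In each depot the closest LCN2 sample had the number of the GFP sample for replicate 3 only, and so few samples cannot settle pairing. With the block the gonadal SE fell for Lyve1 (-0.66, SE 0.162, limma adjusted p = 0.254) and Cd163 (-0.32, SE 0.0842, limma adjusted p = 0.272). It rose for Adgre1, Clec10a and Retnla. Lcn2 in subcutaneous fat was 0.72 to 1.16 with 1 sample left out, with exact permutation p up to 0.0857 (without GFP replicate 1). The 7 gonadal member pairs became 0 with group means subtracted, 0 without the 2 farthest samples and 0 to 8 with 1 sample left out. The 14 subcutaneous pairs became 7, 0 and 5 to 13, and 0 without the 3 libraries high in B cell markers. Fewer samples, or permutation within groups, leave the exact test fewer arrangements. A lower count of pairs is thus not by itself a sign of weaker correlation. Of the 170 comparisons with marker lists, 0 to 7 passed with 1 subcutaneous sample left out, 7 only without GFP replicate 4. The sign turned in 30 gonadal and 10 subcutaneous fits of a member. In gonadal fat these were, without the 2 libraries highest in Myh4, Adgre1 (0.05), Csf1r (0.03), Folr2 (0.29) and Clec10a (0.21); without the 3 highest in liver genes, Cd68 (-0.22) and Mrc1 (-0.19); with library totals and TMM, Mrc1 (-0.01 and -0.00). Under edgeR and DESeq2, where LCN2 replicates 2 and 4 were also missing, they were Adgre1 (0.04 in both), Folr2 (0.32 in both), Timd4 (0.03 in both) and Clec10a (0.26 and 0.27). With 1 gonadal sample left out the ranges, each highest without LCN2 replicate 4, were Adgre1 -0.15 to 0.12, Csf1r -0.25 to 0.02, Mrc1 -0.13 to 0.20, Folr2 -0.24 to 0.27, Clec10a -0.25 to 0.14. In subcutaneous fat sample weights turned Csf1r (-0.01), Cd163 (-0.10) and Clec10a (-0.01). Leaving out GFP replicates 1 and 2 turned Lyve1 (0.28) and Timd4 (0.43), and leaving out the 3 libraries high in B cell markers turned them to 0.30 and 0.07. Left-out ranges were Cd163 -0.03 to 0.25, Lyve1 -0.31 to 0.11. Timd4 had the fewest reads of the 10, 61 to 153 per gonadal sample, and subcutaneous depth is unknown.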
